A study of Rattus norvegicus with 9 samples.

Results

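The genes described here run from the insulin receptor to the transcription factor FOXO1: Insr, Irs1, Irs2, Pik3r1, Pik3ca, Pik3cd, Akt1, Akt2, Gsk3b and Foxo1. They were found on a rat whole-genome oligonucleotide array by gene name or transcript accession, which gave 12 probes. A further probe, named Foxo1a in the files, was taken as Foxo1 because that is a synonym of it in the RefSeq gene table. Together these are 13 of the 41012 probes on the array and cover 9 of the 10 genes, out of 15177 genes with a RefSeq symbol on the array; no probe matched Pik3ca, which was not analysed here. RNA was taken from blood mononuclear cells (PBMC, the lymphocytes and monocytes of circulating blood), and the donors were fed Wistar males at the age of 6 months. From the age of 2 months, and for 4 months, 4 control rats ate standard chow and 5 cafeteria rats were offered fat-rich, energy-dense foods beside the chow, a regimen used to make rats obese. No gene was altered and no drug given, and each array compared 1 animal, in Cy5, with the same reference in Cy3, a pool of RNA from all groups analysed. The animals are named by diet and number; animals that share a number are different animals.

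Insulin binding makes the receptor phosphorylate insulin receptor substrates, which recruit phosphoinositide 3-kinase (PI3K), a regulatory and a catalytic subunit. The lipid that PI3K makes brings the kinase AKT to the membrane. AKT then phosphorylates, among others, GSK3 beta and FOXO1; FOXO1 leaves the nucleus when phosphorylated, and in T and B lymphocytes it drives genes of homing and survival, such as the interleukin 7 receptor. Most of this regulation is by phosphorylation, which RNA levels do not show. In leukocytes the delta subunit of PI3K is a main catalytic form.

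FOXO proteins bind a core of the letters GTAAACA, and the windows taken as promoters of the insulin receptor gene and of the gene of the PI3K catalytic subunit alpha hold it. RefSeq promoters (GRCr8, 250 bases before to 50 after the annotated start, in the direction of transcription) were matched for 9 of the 10 members, all but Irs2. The core on either strand (GTAAACA or TGTTTAC) was found in 2 of those 9, Insr and Pik3ca, and in 3.78% of all 33469 promoters. It was in 1 of 19 promoters of known FOXO1 targets (5.26%), a count too small to say whether its presence marks genes that FOXO1 controls. In Pik3ca the 50 bases after the annotated start open with ATG, the letters of a start codon, so that window may not be a promoter. The promoters of Insr, Gsk3b and Foxo1 are printed because they stand for the start of the pathway and for the 2 members whose differences between the diets were furthest from 0. Capitals mark the FOXO core in Insr and a CCAAT box in Foxo1; Gsk3b has neither, nor a GC box.
Insr, chr12:6128754-6129053, minus strand: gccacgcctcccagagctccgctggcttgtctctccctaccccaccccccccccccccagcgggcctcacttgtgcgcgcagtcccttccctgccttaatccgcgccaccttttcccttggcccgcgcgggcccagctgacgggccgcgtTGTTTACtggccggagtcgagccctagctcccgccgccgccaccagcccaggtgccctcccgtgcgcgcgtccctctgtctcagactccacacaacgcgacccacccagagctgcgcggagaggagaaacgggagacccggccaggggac
Gsk3b, chr11:76153200-76153499, minus strand: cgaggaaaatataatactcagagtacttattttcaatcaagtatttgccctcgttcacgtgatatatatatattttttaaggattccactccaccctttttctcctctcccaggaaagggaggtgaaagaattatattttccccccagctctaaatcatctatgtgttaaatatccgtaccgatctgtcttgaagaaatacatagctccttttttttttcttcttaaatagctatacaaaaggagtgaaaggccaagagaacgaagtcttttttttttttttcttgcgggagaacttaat
Foxo1, chr2:138462724-138463023, plus strand: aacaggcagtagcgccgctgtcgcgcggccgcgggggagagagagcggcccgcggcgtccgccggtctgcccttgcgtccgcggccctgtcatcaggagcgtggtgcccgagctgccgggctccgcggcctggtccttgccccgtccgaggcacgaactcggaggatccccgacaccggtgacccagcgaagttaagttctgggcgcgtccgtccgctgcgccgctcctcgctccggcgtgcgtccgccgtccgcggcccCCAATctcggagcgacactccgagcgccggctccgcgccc
The core of Insr begins at base -100 from the annotated start. G and C make up 71.3% of the Insr window and 34.7% of that of Gsk3b, where the median promoter has 51.7%. The CCAAT box (CCAAT or ATTGG) is in 37.5% of all promoters and in those of Foxo1, Pik3cd and Pik3r1, and the GC box (GGGCGG or CCGCCC) is in 33.1% of all and in those of Irs1 (3 times) and Pik3r1 (7 times). These are matches of letters in 1 window per gene, and binding was not measured.

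Values are log2 ratios of the animal's Cy5 signal to the reference, so a difference of 1 is a doubling. Animals were always in Cy5 and the reference in Cy3, so the side of the reference on which a probe stands cannot be told apart from a dye effect. Between 58.8% and 66.7% of the spots of an array had a Cy5 signal well above background, and 25808 probes passed a filter of being so on at least 4 arrays. In limma, with 7 residual and 3.42 prior degrees of freedom, 0 of these probes (0%) had an adjusted p under 0.05, and 1469 (5.69%) had an unadjusted p under 0.05, of which 498 (1.93%) were higher and 971 (3.76%) lower in cafeteria animals.

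None of the insulin signalling genes was called as different between the diets. Of the 13 probes, 12 of 8 genes passed the filter: 6 were higher in cafeteria animals and 6 lower (52.8% and 47.2% of all probes), 0 were called (limma adjusted p between 0.947 and 0.998), and 0 had an unadjusted p under 0.05. Their median difference was 0.0030, where the median over all probes tested was 0.0077. Differences ran from -0.35 for Gsk3b to 0.16 for Akt2. On 0 of the 12 probes did the groups separate without overlap, against 2.01% of all probes. With 4 and 5 animals, the 95% intervals still allow Gsk3b to be as low as 0.587-fold and Akt1 or Akt2 as high as 1.38-fold in cafeteria animals, so moderate differences were not detectable.

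**Figure D1:**
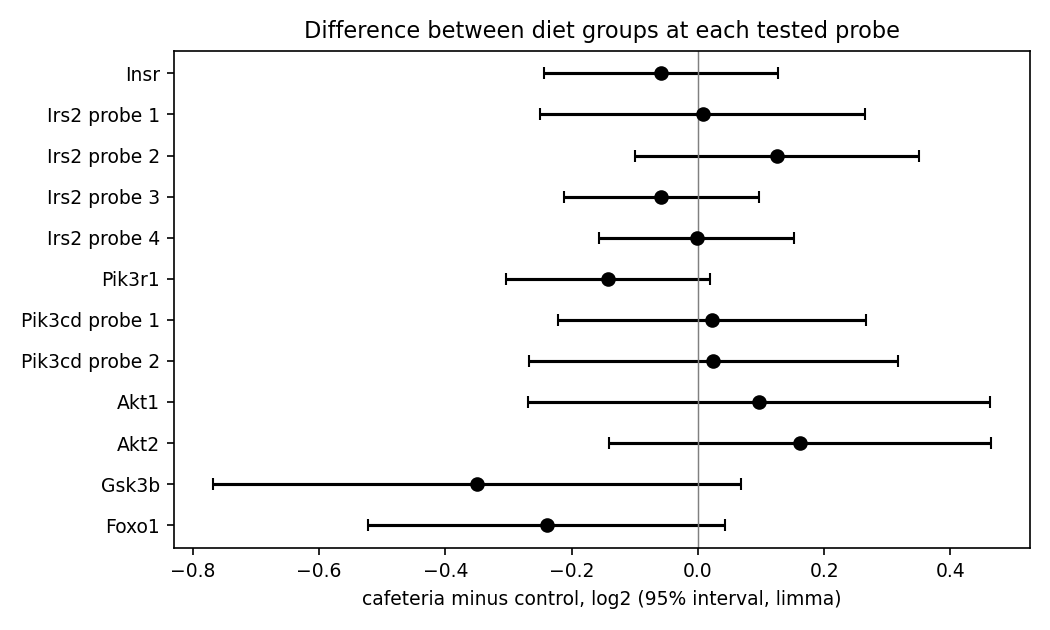
Cafeteria minus control on the log2 scale for the 12 tested probes, with 95% limma intervals; probes of Irs2 and Pik3cd are numbered by falling mean signal. Every interval holds 0, and those of Gsk3b, Akt1 and Akt2 are the widest among genes with 1 probe.

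The insulin receptor, Insr, was dim in PBMC. Its probe (rn4, chromosome 12, 3087143 to 3087201, plus strand) was well above background in Cy5 on 6 of 9 arrays, 3 control and 3 cafeteria, and in the reference on 0, so its ratio rests on signals near the detection limit. Control animals stood at 0.062 (number 1), 0.092 (4), 0.34 (7) and 0.0086 (13). Cafeteria animals stood at -0.0043 (1), 0.10 (4), 0.17 (7), 0.085 (10) and -0.022 (13). The groups overlapped, and control 7 was the highest of all. The difference was -0.059 (SE 0.084, limma adjusted p = 0.984; 95% interval -0.24 to 0.13), and it turned to 0.0052 without background correction and to 0.012 without control 7.

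The insulin receptor substrates are the docking proteins that carry the signal from the receptor. Irs1 (chromosome 9, 81585685 to 81585744, minus strand) has 10 spots on each array and was not well above background on any of the 9 arrays in either dye, so it was not tested. Irs2 was measured by 4 probes on chromosome 16, plus strand, all well above background in Cy5 on 9 arrays. At the brightest (83403814 to 83403873) the control animals stood at -0.084 (number 1), -0.25 (4), 0.34 (7) and -0.025 (13). The cafeteria animals stood at -0.045 (1), -0.025 (4), -0.15 (7), 0.15 (10) and 0.083 (13). All cafeteria values lay within the range of the controls, and the spread was larger in controls (SD 0.25, n = 4) than in cafeteria animals (SD 0.12, n = 5). The difference was 0.0076 (SE 0.12, limma adjusted p = 0.997).

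The other 3 Irs2 probes, at 83383275 to 83383334, 83382695 to 83382754 and 83381868 to 83381927, gave differences of 0.13 (SE 0.10), -0.058 (SE 0.070) and -0.0017 (SE 0.070). They did not share a sign. The first was 0.062 without control 4, 0.21 without control 7 and 0.43 when the log ratio of the scanner software was used, and the next was -0.015 without control 7. Over the 9 arrays the brightest probe followed the first of these (Pearson r 0.891, exact permutation p = 0.0011, 0.0076 adjusted over 7 pairs of probes of 1 gene; Spearman rho 0.883, exact p = 0.0031, adjusted 0.0108; r 0.877 without control 4 and control 7). It did not follow the last (r -0.015, exact permutation p = 0.970; rho -0.083, exact p = 0.843; r 0.125 without the same 2 arrays). The files name all 4 as Irs2 and give neither exon nor untranslated region for any probe. They list the 3 dim probes under the same transcript and the brightest under another, so the probes are not equal measures of Irs2.

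Pik3r1, the regulatory subunit p85 alpha that docks PI3K on the substrates, was 0.906-fold in cafeteria animals. Its probe lies on chromosome 2, 32606419 to 32606478, minus strand. Control animals stood at 0.25 (number 1), 0.013 (4), 0.0074 (7) and 0.064 (13). Cafeteria animals stood at -0.073 (1), -0.097 (4), 0.0090 (7), -0.015 (10) and -0.12 (13). All controls were above 0 and 4 of 5 cafeteria animals lay below the lowest control; cafeteria 7 made the groups overlap. The difference was -0.14 (SE 0.073), with a limma adjusted p of 0.947, and was -0.087 without control 1. On the 2 slides that held 1 animal of each diet it was -0.32 and -0.078, and with slide as a block -0.20. Across arrays the correlation of Pik3r1 with the mean of 16 erythroid markers did not pass the adjustment (r -0.690, exact permutation p = 0.021, adjusted 0.327 over 56 relations; rho -0.750, exact p = 0.025, adjusted 0.686; r -0.881 without control 1 and cafeteria 13). Of those markers 12 were higher in cafeteria animals, as were 56.2% of all genes with a symbol. At an unadjusted limma p under 0.05, 9 were higher, where 2.32% of all genes were, and 0 were called. The mean of the markers ran from -0.56 to -0.41 in controls and from -0.42 to -0.068 in cafeteria animals. Their part in the result was not tested.

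Pik3cd, the leukocyte catalytic subunit p110 delta, had differences near 0 in both of its probes. At the brighter probe (chromosome 5, minus strand, spread over 398 genomic bases from 166738219 to 166738616) the control animals stood at -0.16 (number 1), -0.52 (4), -0.41 (7) and -0.23 (13). The cafeteria animals stood at -0.48 (1), -0.012 (4), -0.36 (7), -0.30 (10) and -0.39 (13). Every animal was below the reference and the groups overlapped. The differences were 0.022 (SE 0.11) and, at the second probe, which has no position in the files, 0.025 (SE 0.13), each with a limma adjusted p of 0.997. Both probes turned negative without cafeteria 4 (-0.052 and -0.055). They were also negative with slide as a block (-0.19 and -0.13), which rests on controls 1 and 13 and cafeteria 1 and 10 only. The probes moved together over the 9 arrays (r 0.858, exact permutation p = 0.0030, adjusted 0.0106 over 7 pairs; rho 0.883, exact p = 0.0031, adjusted 0.0108; r 0.654 without control 1 and cafeteria 4).

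**Figure D2:**
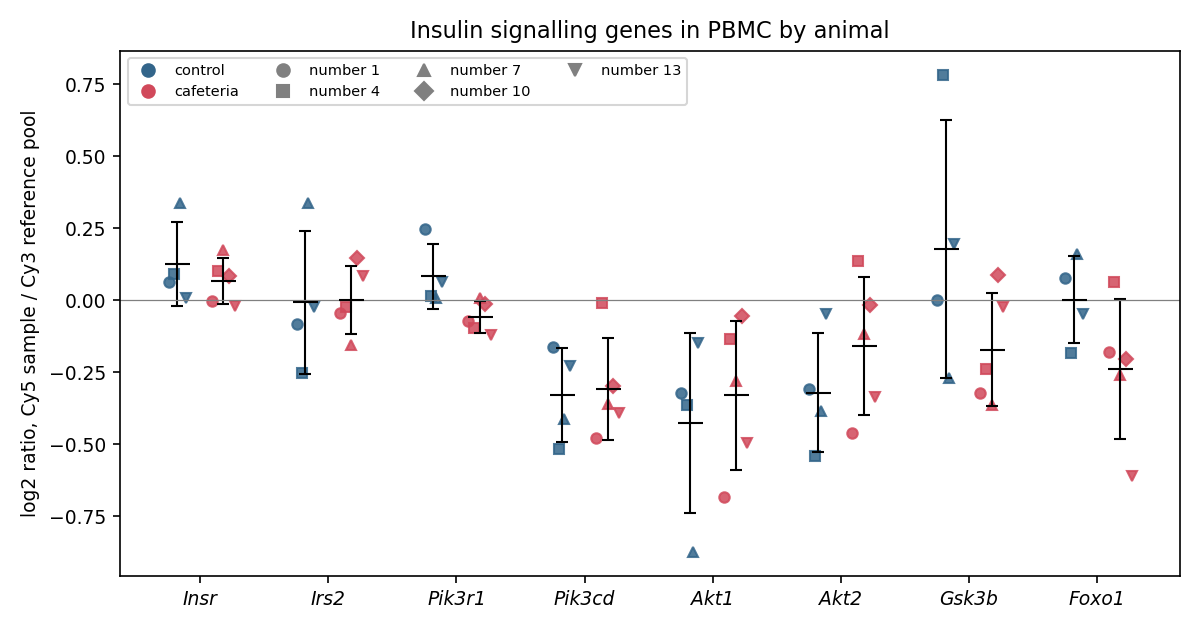
Log2 ratio to the reference of each animal for the 8 measured genes, at the probe of highest mean signal, in control (blue, n = 4) and cafeteria animals (red, n = 5); marker shapes give the animal's number, and bars the group mean and SD. The groups overlap for every gene; control 4 stands highest for Gsk3b (0.78) and control 7 lowest for Akt1 (-0.87).

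The AKT kinases carry the PI3K signal to its targets, and for both the difference between the diets was smaller than the SD over all animals (0.27 for Akt1 and 0.23 for Akt2). Akt1 (chromosome 6, 137641146 to 137641205, minus strand) stood in controls at -0.32 (number 1), -0.36 (4), -0.87 (7) and -0.15 (13). In cafeteria animals it stood at -0.68 (1), -0.13 (4), -0.28 (7), -0.056 (10) and -0.50 (13). All 9 values were below the reference, and the low animals, control 7 and cafeteria 1, came 1 from each diet. The difference was 0.097 (SE 0.17, limma adjusted p = 0.986), and -0.052 without control 7.

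Akt2 (chromosome 1, 82725226 to 82725285, plus strand), the form that insulin uses to move glucose transporters in fat and muscle, stood in controls at -0.31 (number 1), -0.54 (4), -0.39 (7) and -0.049 (13). In cafeteria animals it stood at -0.46 (1), 0.14 (4), -0.12 (7), -0.018 (10) and -0.34 (13). Cafeteria 4 was the only animal above the reference. The difference was 0.16 (SE 0.14, 1.12-fold, limma adjusted p = 0.983). With slide as a block, which rests on controls 1 and 13 and cafeteria 1 and 10 only, it was -0.061. Leaving out 1 animal gave 0.088 without control 4, 0.088 without cafeteria 4 and 0.25 without control 13.

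Akt1 and Gsk3b, like Irs1, are printed 10 times on each array, which separates the error of a spot from the spread between animals. Over 89 usable spots the SD of Akt1 within an array was 0.046 (median over arrays), against an SD between arrays of 0.27, which is 5.83 times as large. For Gsk3b, over 80 usable spots, it was 0.041 against 0.36, or 8.65 times. For the undetected Irs1 the SD of spots within an array was 0.104 and that between arrays 0.044. The SD between arrays is that of means over the spots, whose own spot error is smaller than that of a single spot. That error (SE) was 0.015 for Akt1, 0.013 for Gsk3b and 0.033 for Irs1, below the SD between arrays in each. Repeated spots share the RNA, the labelling and the array, so they show spot error only.

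**Figure D3:**
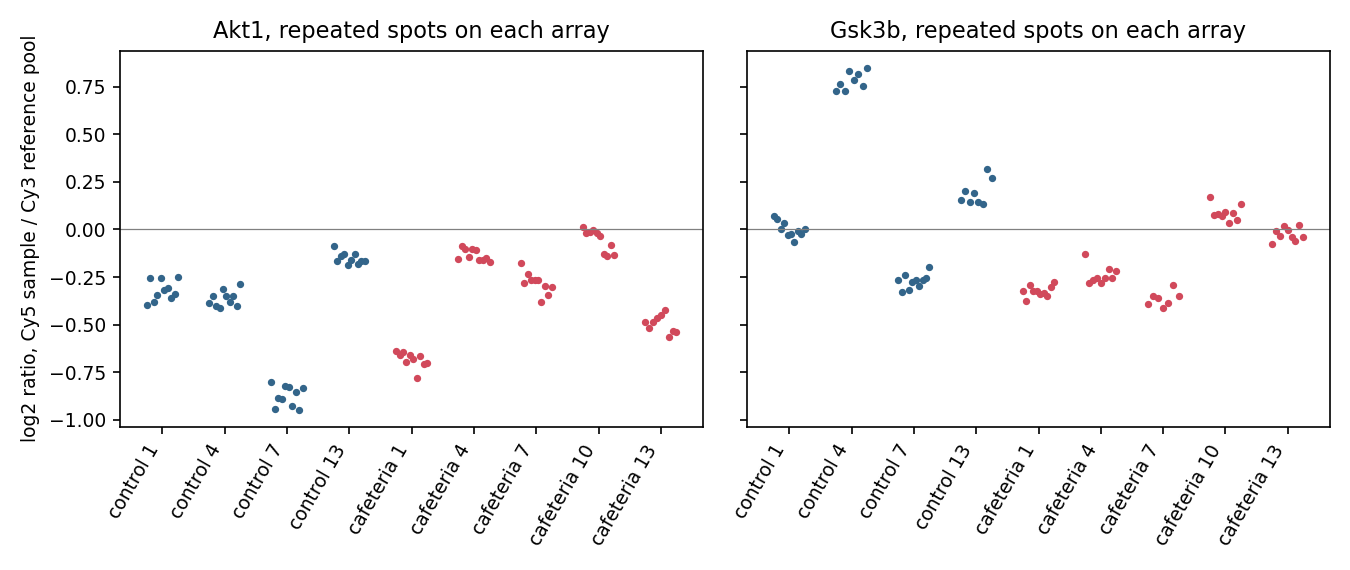
Log2 ratio to the reference of each usable repeated spot of Akt1 and Gsk3b on the 9 arrays (control blue, cafeteria red). Spots of an array lie close together, with a median SD of 0.046 and 0.041, while arrays differ with an SD of 0.27 and 0.36.

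Gsk3b, a kinase that restrains glycogen synthesis until AKT phosphorylates it, had the largest difference of the members and followed the platelet markers of each blood sample. Its probe lies on chromosome 11, 64302294 to 64302353, minus strand. Control animals stood at 0.0020 (number 1), 0.78 (4), -0.27 (7) and 0.19 (13). Cafeteria animals stood at -0.32 (1), -0.24 (4), -0.36 (7), 0.087 (10) and -0.023 (13). Control 4 stood far above the next control, number 13, and control 7 lay among the low cafeteria animals. The difference was -0.35 (SE 0.19, 0.785-fold; limma adjusted p = 0.952), and -0.15 without control 4. On the slides with both diets it was -0.33 and -0.11, and with slide as a block, which gives their mean, -0.22.

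Platelets are cell fragments that can stay with mononuclear cells on a Ficoll gradient. The mean of 10 platelet and megakaryocyte markers, among them Pf4, Ppbp, Gp9 and Treml1, was highest in control 4 (1.31), the animal highest for Gsk3b, and lowest in cafeteria 7 (-0.84), the animal lowest for it. Gsk3b correlated with that mean over the 9 arrays (r 0.948, exact permutation p = 0.000317, adjusted 0.0177 over 56 relations of 8 genes with 7 marker lists). The rank correlation did not pass the adjustment (rho 0.883, exact permutation p = 0.0031, adjusted 0.172). Without control 4 and cafeteria 7 r was 0.83, and after centring each diet group it was 0.953. Across the single markers r with Gsk3b ran from 0.823 (Gp5) to 0.968 (Gp9). Among the 10412 genes compared, 116 others outside the list (1.12%) followed the marker mean at least as closely. Slides held 1 or 2 arrays, too few for a value within a slide.

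The platelet markers themselves were lower in cafeteria animals, 10 of 10, where 56.2% of all genes with a symbol were higher. These markers had a median of -0.47, with 0 called and 0 with an unadjusted limma p under 0.05. Their mean ran from -0.36 to 1.31 in controls and from -0.84 to 0.36 in cafeteria animals. Of the other genes listed, Itga2b, Gp1ba, Gp6 and Tubb1 matched no probe. In such a mixture of cells, fewer cells of a type and less RNA per cell cannot be told apart. The part of platelet RNA in the Gsk3b difference was not tested.

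Foxo1, the transcription factor at the end of the pathway, averaged 0.0012 ± 0.15 (SD, n = 4) in controls; cafeteria animals averaged -0.24 ± 0.24 (SD, n = 5). Its probe lies on chromosome 2, 141201740 to 141201799, plus strand. Control animals stood at 0.076 (number 1), -0.18 (4), 0.16 (7) and -0.049 (13). Cafeteria animals stood at -0.18 (1), 0.063 (4), -0.26 (7), -0.20 (10) and -0.61 (13). Cafeteria 13 was far the lowest, 3 of 5 cafeteria animals lay below the lowest control, and cafeteria 4 stood among the controls. The difference was -0.24 (SE 0.13, 0.847-fold; limma adjusted p = 0.952), and -0.15 without cafeteria 13. On the slides with both diets it was -0.25 and -0.15, and with slide as a block, which gives their mean, -0.20.

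The correlations of Foxo1 with T cell markers, positive, and with B cell markers, negative, did not pass the adjustment over the 56 relations. With the mean of 19 T cell markers r was 0.776 (exact permutation p = 0.012, adjusted 0.327), rho 0.700 (exact p = 0.043, adjusted 0.686), and r 0.646 without control 7 and cafeteria 13. With 11 B cell markers r was -0.721 (exact permutation p = 0.023, adjusted 0.327), rho -0.683 (exact p = 0.050, adjusted 0.686), and r -0.497 without the same arrays. All 19 T cell markers were lower in cafeteria animals (median -0.11, 3 with an unadjusted limma p under 0.05, 0 called). Of all genes with a symbol 56.2% were higher, and 3.31% were lower with an unadjusted limma p under 0.05. The mean of the T cell markers ran from -0.18 to 0.11 in controls and from -0.45 to 0.051 in cafeteria animals, with cafeteria 13 the lowest. All 11 B cell markers were higher (median 0.21, 0 with an unadjusted limma p under 0.05, 0 called), their mean between -0.26 and 0.27 in controls and between -0.23 and 0.41 in cafeteria animals. Lck among the T cell markers and Cd79a, Pax5, Bank1 and Fcrla among the B cell markers matched no probe. The part of the cell mixture in the Foxo1 difference was not tested.

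**Figure D4:**
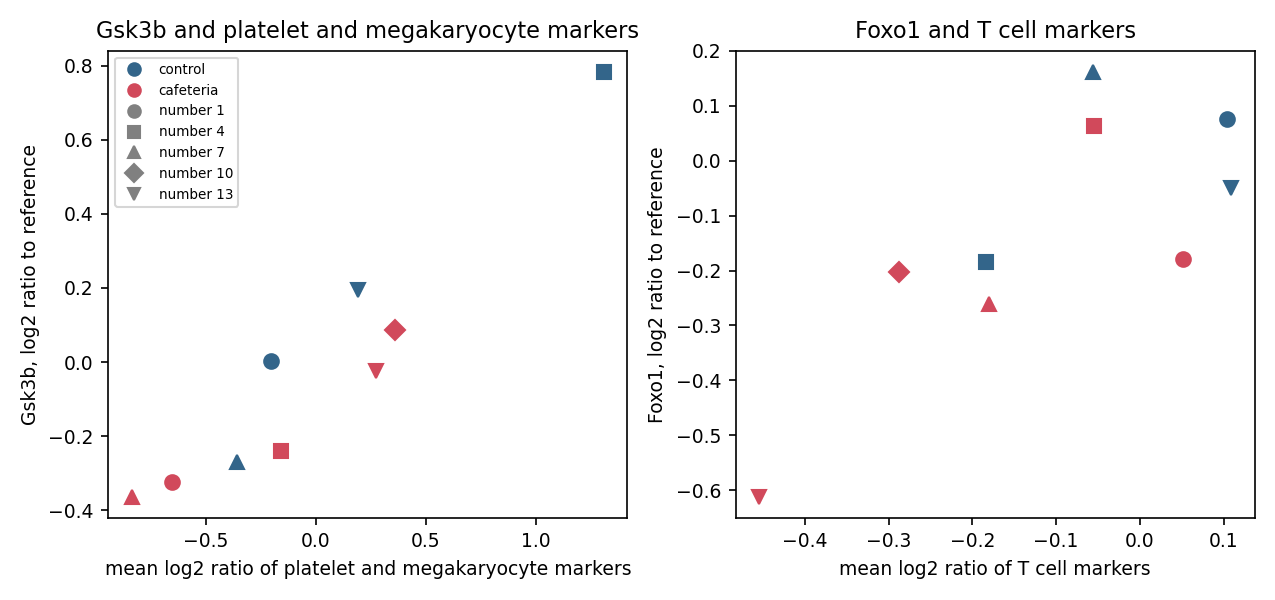
Left, log2 ratio of Gsk3b against the mean log2 ratio of 10 platelet and megakaryocyte markers; right, Foxo1 against the mean of 19 T cell markers, 1 point per animal (control blue, cafeteria red; shapes give the animal's number). Gsk3b is higher where the platelet markers are (r 0.948), and Foxo1 is lowest in cafeteria 13, which is also lowest for the T cell markers (-0.45).

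Markers of the remaining cell types were read in the same way. Cytotoxic T and NK cell markers were higher in 11 of 13 (median 0.28, 4 with an unadjusted limma p under 0.05, 0 called), and those of monocytes in 6 of 14 (median -0.031). Of all genes with a symbol 56.2% were higher, 2.32% with an unadjusted limma p under 0.05. Of 7 neutrophil markers detected 2 were higher (median -0.13); Mpo, Ltf, Cxcr2, Mmp8 and Fpr1 were not detected. T cell, B cell, NK cell and monocyte markers were all detected, as the label PBMC implies, together with platelet and erythroid ones.

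Among the members, the highest correlations were those of the PI3K catalytic subunit and AKT forms with each other. Pik3cd with Akt2 had an r of 0.807 over the 9 arrays (exact permutation p = 0.0081, adjusted 0.227 over 28 pairs; rho 0.883, exact p = 0.0031, adjusted 0.063; r 0.937 without control 1 and cafeteria 4). Akt1 with Akt2 had an r of 0.734 (exact permutation p = 0.024, adjusted 0.332; rho 0.867, exact p = 0.0045, adjusted 0.063; r 0.794 without control 7 and cafeteria 1). None of the 28 pairs passed the adjustment. Foxo1 and the insulin receptor, whose promoter holds the FOXO core, had an r of 0.536 (exact permutation p = 0.143, adjusted 0.848; rho 0.350, exact p = 0.359; r -0.279 without control 7 and cafeteria 13), so that relation rested on those arrays.

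The genes most like the ends of the pathway were sought over 10411 genes by Pearson correlation on the 9 arrays, as a description. Such correlations are high by selection, being the highest of 10411, and the Insr ratio rests on signals near the detection limit. Closest to Insr were Enpp1 (r 0.925), a membrane phosphodiesterase known to bind the insulin receptor, Cdc25a (r 0.882), a cell cycle phosphatase, and Ncoa3 (r 0.881), a nuclear receptor coactivator. Their rho was 0.783, 0.500 and 0.767, and r without control 7 and cafeteria 13 was 0.733, 0.879 and 0.618. Among the closest to Foxo1 were Tnfrsf26 (r 0.925, rho 0.917) and Taok1 (r 0.921, rho 0.800), a protein kinase; r without control 7 and cafeteria 13 was 0.774 and 0.789.

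The rest of the pathway was read from 5 lists, 84 genes tested of 103 listed. Of these 49 were higher and 35 lower in cafeteria animals, where 56.2% of all 10452 genes with a symbol were higher, and their median was 0.041 against 0.016. None was called (limma, 0 of 84; 0% of all genes), and 11 had an unadjusted p under 0.05, 6 higher and 5 lower. That is 13.1% of the 84, against 5.64% of all genes, 2.32% higher and 3.31% lower. Without control 1 it was 6 genes. With slide as a block, which rests on controls 1 and 13 and cafeteria 1 and 10 only, it was 1 gene.

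Of 19 partners at the receptor, such as adaptors and phosphatases, 13 were higher and 6 lower (median 0.092). Sh2b1, an adaptor that enhances receptor signalling, differed by 0.18 (SE 0.079, limma adjusted p = 0.845), and Sos2, an exchange factor that links receptors to RAS, by 0.23 (SE 0.10, limma adjusted p = 0.849). Shc1, the adaptor of the RAS branch, differed by -0.33 (SE 0.15, limma adjusted p = 0.870) and by -0.18 without control 1. The other probe of Shc1 gave -0.21 and those of Sos2 gave 0.066 and 0.021.

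Of 12 other PI3K subunits and lipid phosphatases 7 were higher and 5 lower. The largest difference in the lists was that of Pik3cg, the leukocyte catalytic subunit p110 gamma, which chemokine receptors activate. Controls stood at -1.1 (number 1), -0.92 (4), -0.98 (7) and 0.31 (13). Cafeteria animals stood at 0.62 (1), 0.49 (4), 0.39 (7), 0.36 (10) and 0.27 (13). Control 13 stood with the cafeteria animals, and the other 3 controls lay far below. The difference was 1.1 (SE 0.25, 2.14-fold, limma adjusted p = 0.444). Leaving out any animal but control 13 gave 0.95 to 1.14, with a limma adjusted p from 0.31 to 0.88. Without control 13 it was 1.42 (limma adjusted p = 0.0023), a value that follows from leaving out the control nearest the cafeteria animals and is no evidence of a difference. On the slide of control 13 and cafeteria 10 it was 0.053 and on that of control 1 and cafeteria 1 it was 1.73. Inpp4b, a phosphatase of lipids made downstream of PI3K, differed by -0.29 (SE 0.13, limma adjusted p = 0.861), or -0.11 with slide as a block, and Inpp5k, another inositol phosphatase, by 0.20 (SE 0.069, limma adjusted p = 0.661) with no overlap between the groups, as in 1.96% of all genes.

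Of 15 kinases and phosphatases beside AKT 9 were higher and 6 lower. Those with an unadjusted limma p under 0.05 were Phlpp1, a phosphatase, at 0.27 (SE 0.10, adjusted p = 0.760), and Ppp2r1a, the scaffold subunit of protein phosphatase 2A, at 0.27 (SE 0.091, adjusted p = 0.634), whose groups did not overlap and whose other probe gave 0.19. The catalytic subunits of protein phosphatase 2A, Ppp2ca and Ppp2cb, differed by 0.0059 (SE 0.14) and 0.053 (SE 0.082). Substrates of AKT and mTORC1 were higher in 9 and lower in 8 of 17, with 0 at an unadjusted limma p under 0.05; the factors Foxo3 and Foxo4 differed by -0.050 and -0.097.

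Known FOXO1 targets, 22 tested, were higher in 12 and lower in 10, with a median of 0.034. Fbxo32, the ubiquitin ligase atrogin-1, differed by -0.25 (SE 0.072, limma adjusted p = 0.553), and its groups did not overlap. Il7r, the receptor that sustains naive T cells, differed by -0.40 (SE 0.15, limma adjusted p = 0.742). Controls stood for Il7r between 0.23 and 0.49 and cafeteria animals between -0.48 and 0.38, an overlap made by cafeteria 1. The homing genes Klf2 and Ccr7 differed by 0.13 and 0.10, each with an unadjusted limma p above 0.1. S1pr1 and Pdk4 were not detected.

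**Figure D5:**
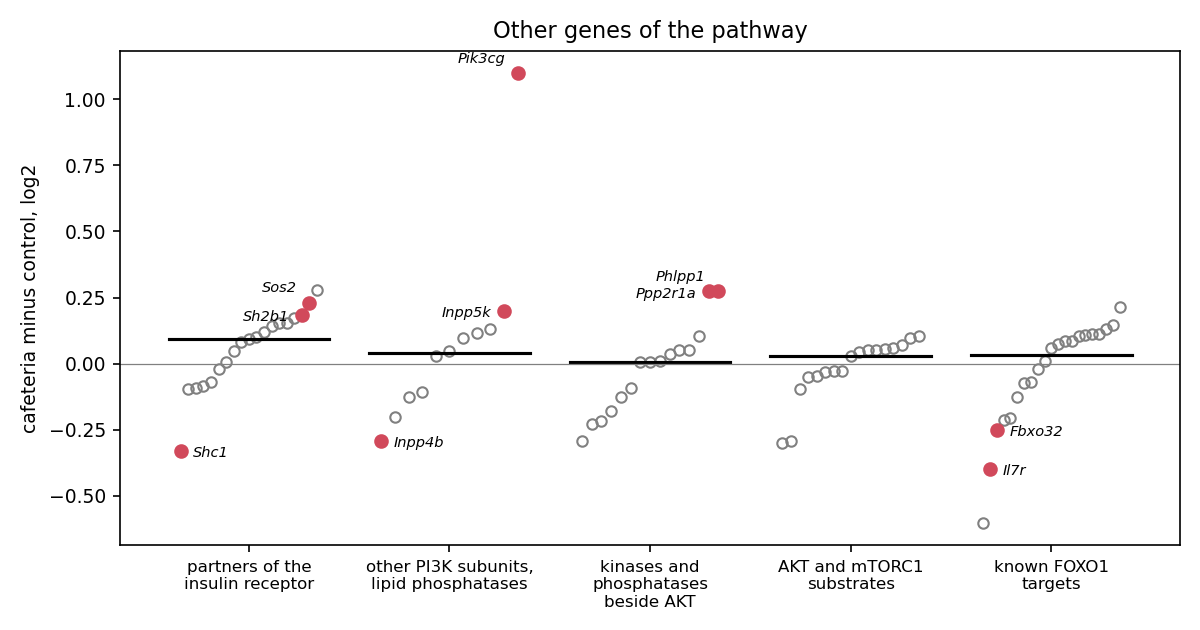
Cafeteria minus control on the log2 scale for the other genes of the pathway that are reported here, by list and ordered within it; filled red points have an unadjusted limma p under 0.05 and are named, and black lines are medians of all tested genes of a list. Pik3cg stands apart at 1.1, and 2 named FOXO1 targets, Fbxo32 and Il7r, lie below 0.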

How the data were processed

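Scanner files deposited by the authors give, per spot, the mean intensity and the median local background of both dyes, read with Agilent Feature Extraction 9.5.1.1 per the file headers and not normalized. Per the file headers they also hold the software's own log10 ratio (red over green), background-subtracted and dye-normalized. A table of log2 values deposited by the authors follows the Cy5 intensity (rank correlation 0.993 to 0.999); its medians run from 9.40 to 9.69, so it is not centred; the role of the reference in it is not stated.

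Local backgrounds that the software marked as outliers were replaced by the median background of the array and dye, then normexp (offset 50) and loess were applied in limma 3.58.1 (R 4.3.3, statmod 1.5.0, the package data.table, version 1.17.8); Python 3.11.15 with numpy 2.4.6, pandas 2.3.3 and matplotlib 3.10.9 did the rest. That replacement was chosen after seeing the data. With outliers kept (up to 65389 units in Cy5, against array medians of 50 to 54), normexp lifted dim Cy5 spots (the 10th percentile) on several arrays. They stood at 719 units on control 4, 1209 on cafeteria 4, 166 on control 13 and 130 on cafeteria 13. On the other arrays they were at most 40.5 (control 7). After replacement they were 13.3 to 20.3 on all arrays. Control spots had weight 0, marked outlier spots were left out, and spots of a probe were averaged. Cafeteria and control were compared with limma, Benjamini-Hochberg adjusted over all 25808 probes that were well above background in Cy5 on at least 4 of 9 arrays. The number of arrays limits the precision. Genes were named through RefSeq (19436 probes, 47.4%; 88 dropped because the chromosomes disagreed) and taken at the probe of highest mean signal. Slides, 7 in all, were tested as a block, and scans coincided with slides. Only the slides that held both diets inform the diet difference in that fit: control 1 with cafeteria 1, and control 13 with cafeteria 10. The other animals drop out of it, so it is no check on all the data.

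Named are all members, up to 3 genes per list and direction with the smallest unadjusted p under 0.05, and the 3 genes most like Insr and Foxo1; markers and targets named beyond this were chosen after their values were seen. Some genes that this rule or the lists would name are not reported here, though the counts and medians include them. The members and lists were chosen with earlier results of these data known. The limma step was tested on simulated data.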

Additional observations from a re-analysis of the deposited data

Results flagged for a closer look

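Among 46 sets of values (both diet groups of each member probe and each named gene), 3 (6.52%) held 1 animal far from the others of its group by Dixon's test at 95%, where chance gives about 1 in 20. None was a member probe. Sos2 stood at 0.32 in cafeteria 13, with the other cafeteria animals between -0.054 and -0.016. Pik3cg stood at 0.31 in control 13, with the other controls between -1.1 and -0.92. Ppp2r1a stood at 0.35 in cafeteria 1, with the other cafeteria animals between -0.059 and 0.033.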

How the results depend on the processing

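Over 23 alternatives, 269 differences of member probes could be fitted: 238 kept their direction, 31 turned, and 0 were called (limma, lowest adjusted p 0.392). Gsk3b, Foxo1, Pik3r1 and Irs2 probe 2 never turned. The correlation of Gsk3b with platelet markers kept its sign and an exact permutation p under 0.05 under the 7 other scalings (r 0.914 to 0.950) and without each animal in turn (0.868 to 0.962). The median difference over all probes, 0.0077 as reported, was 0.13 with the authors' values and 0.073 with median centring.

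Differences that turned were, without background correction, 0.0052 (Insr) and 0.0041 (Irs2, probe 3); with outlier backgrounds kept, -0.022 and 0.011 (Irs2, probes 1 and 4); with the scanner software's log ratio, 0.066 (Irs2, probe 3); with Cy5 alone, -0.018 (Pik3cd, probe 1); with array weights, 0.021 (Irs2, probe 4); and with slide as a fixed block, 0.0049 (Insr), 0.034 (Irs2, probe 4), -0.19 and -0.13 (Pik3cd), -0.13 (Akt1) and -0.061 (Akt2). Some probes also turned when 1 animal was left out. Over all fits without 1 animal, turned or not, their differences ran from -0.098 to 0.012 (Insr), -0.075 to 0.12 (Irs2, probe 1), -0.029 to 0.025 (Irs2, probe 4), -0.052 to 0.078 and -0.055 to 0.11 (Pik3cd) and -0.052 to 0.19 (Akt1). The cause was not tested.

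Probes called over all were 2 with outlier backgrounds kept and 0 to 2 without each animal (2 without control 1 and 2 without control 13). Probes at an unadjusted limma p under 0.05 numbered 2908 with median centring, 2572 with the authors' values and 819 with slide as a fixed block. Member probes at that p numbered 1 with outlier backgrounds kept (Foxo1), and 0 to 2 without each animal, with 2 without control 7. Genes of the other lists numbered 18 with median centring, 17 with the authors' values and 7 after centring these, 7 with outlier backgrounds kept, 1 with slide as a fixed block, and 6 (without control 1) to 17 (without cafeteria 1) without each animal; 0 to 1 of them were called, that 1 being Pik3cg without control 13.

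Over all probes no pairing by animal number was seen: deviations of same-numbered animals correlated at -0.058, 0.033, 0.13 and -0.17. A pairing that affects few genes would not show in these values. With the number as a replicate block Irs2 probe 1 stood at -0.029, 1 member probe (Gsk3b) and 7 genes of the other lists had an unadjusted limma p under 0.05, and no other call changed. Insr, near background, and Irs1, not above it, are where signal limits the values most.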
